A study of Mus musculus with 2 samples.

Results

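Ribosomal protein genes were followed in the spinal cord of mice, in 2 libraries of single cells. The genes were chosen by symbol: Rpl or Rps and a digit, and Rpsa, Rplp0, Rplp1 and Rplp2, leaving out Rps6k kinases and symbols with -ps. The rule took 86 of the 22480 genes in each table: 43 of the large subunit, 31 of the small subunit, 3 of the P stalk, 8 paralogs of a core protein and Rps19bp1, whose product binds a ribosomal protein. The shares, cycling states and deviating genes described here were selected on earlier results of the same tables, so they are descriptions with no test. One library was sham operated and the other was taken at 3 days post injury (3 dpi), each made from 10 pooled C57BL/6 mice of 8 weeks, 5 of them male and 5 female. An 8 mm length of cord was dissociated and captured on the 10X 3′ v.3 platform. The kind of injury, the sham procedure and which cells survived dissociation are not given in the sources used here.

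A ribosome is made of a large and a small subunit, each a scaffold of ribosomal RNA dressed with proteins that are needed in near equal numbers. Messenger RNAs of ribosomal proteins usually start with a C and a run of pyrimidines, the 5′ terminal oligopyrimidine tract, through which the mTOR kinase and the RNA-binding protein LARP1 set their translation. They are among the most abundant short messenger RNAs of a cell, and growing and dividing cells hold many of them. Paralogs such as Rps27l, a p53 target, can take the place of a core protein.

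Letters of this kind were looked for at the start sites. The RefSeq promoter table (GRCm38.p6) held 66 of the 86 genes. The letters CTTTCC, read on the transcript's strand within 20 bases before to 30 after the annotated start, were present in 13 of 66 members (19.7%) and in 764 of 27025 genes (2.83%). In the whole 300-base promoter window the letters were present in 27 members (40.9%) and in 16.01% of all genes. On the opposite strand of the 50-base window, the motif was found in 1 member (1.52%) and in 2.69% of genes. No second motif was searched, annotated starts can miss the true one by some bases, and a match is only a description of these letters. The 5 windows printed here belong to genes that depart from the other members below, with the motif in capitals:
Rps27, chr3:90213626-90213653, minus strand: tcgctcCTTTCCggcggtgacgacctcc
Rps27rt, chr9:114982718-114982745, minus strand: cccttgCTTTCCggcggtgacgacctcc
Rpl35, chr2:39005115-39005142, minus strand: cccgccCTTTCCtctttctctcgaacca
Rpl38, chr11:114668574-114668601, plus strand: ctcgttCTTTCCccgttctcttcggttc
Rpl10a, chr17:28328567-28328594, plus strand: gcgcaaagcgctctgccttCTTTCCggt
In Rps27 the motif began at base 2 of the annotated transcript and in Rps27rt and Rpl38 at base 1. In Rpl10a it began at base 22, inside the transcript, and in Rpl35 at position -5, before the annotated start. The Rps27 and Rps27rt windows were identical over their last 22 of 28 bases. Of 100-base stretches near the 3′ end of Rps27rt transcripts, where this chemistry reads, 89.5% also occurred in another gene's transcripts, so reads of the pair can be split between them. Over all 86 members, 20 shared no such stretch with another gene and 24 shared over 50% of them.

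The libraries held 10138 sham and 13594 3 dpi barcodes, with 76889038 and 149291783 unique molecular identifiers (UMIs, each a counted RNA molecule), and 39 barcode sequences were common to both. Cells passing the filters and not called as doublets numbered 9306 in sham (median depth 5256 UMIs) and 12108 at 3 dpi (8435.5 UMIs). Cells were clustered without ribosomal protein genes, cell cycle genes or genes of the other lists below among the variable genes. Clusters were named from markers, as X-like. Clusters 1, 17, 20 and 27 kept no name and appear by number where used. With 1 library per group there is no replicate check, and intervals (95%, Clopper-Pearson for shares, Poisson for counts) cover counting error only. The libraries differ also in depth and in dissociation and nuclear RNA, given with the results.

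Ribosomal protein genes took 6.94% of all UMIs in sham cells and 16.4% at 3 dpi. Within each of the 5 classes with 50 or more cells in both libraries the share was higher at 3 dpi. In oligodendrocyte precursor-like cells, the dividing progenitors of myelinating cells, it was 6.98% of UMIs in 279 sham cells (6.94 to 7.02%) and 18.2% in 861 cells at 3 dpi (18.23 to 18.27%), a 2.62-fold ratio. In endothelial-like cells, which line vessels, it was 10.1% in 1400 sham cells and 24.3% in 395 cells at 3 dpi, a 2.39-fold ratio. In oligodendrocyte-like cells, the myelinating glia, it was 4.76% in 4340 sham cells and 9.02% in 1441 cells at 3 dpi, a 1.90-fold ratio. In microglia-like cells, the resident macrophages of the cord, it was 14.2% in 2197 sham cells and 17.9% in 2589 cells at 3 dpi, a 1.26-fold ratio. In border-associated macrophage-like cells, which sit at meninges and vessels, it was 15.1% in 50 sham cells and 16.9% in 131 cells at 3 dpi, a 1.12-fold ratio.

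The spread over cells separated the libraries in some classes and not in others. In precursor-like cells 98.5% of 3 dpi cells lay above the upper quartile of sham cells, and in endothelial-like cells 94.2%. The same proportion was 81.1% in oligodendrocyte-like, 67.0% in microglia-like and 18.3% in border-associated macrophage-like cells, where the middle of the 2 libraries overlapped. Different clusters held most of each class in the 2 libraries, except for border-associated macrophage-like cells. Cluster 0 held 2010 of the sham microglia-like cells, and clusters 6, 12 and 13 held 1294, 644 and 644 of those at 3 dpi.

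**Figure D1:**
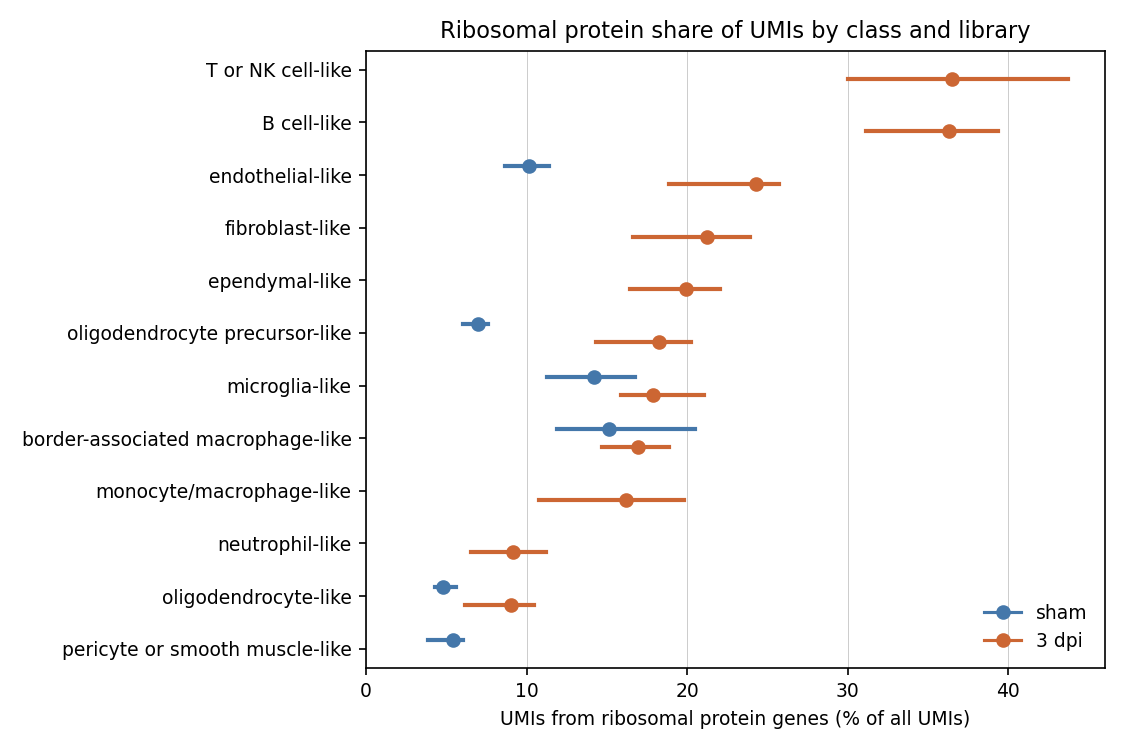
Share of UMIs from ribosomal protein genes (horizontal axis, percent of all UMIs) in each class of at least 50 cells, with sham in blue and 3 dpi in orange. Points are the share of the summed UMIs and lines span the lower to the upper quartile over cells; oligodendrocyte precursor-like and endothelial-like points lie far apart between libraries (6.98% and 18.2%, 10.1% and 24.3%) and the macrophage-like points close together.

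Other classes had 50 or more cells in 1 library only, and their shares are given for that library. At 3 dpi, T or NK cell-like (36.5%, 77 cells) and B cell-like cells (36.3%, 89 cells) had the highest shares, although their median depths of 1653 and 1071 UMIs were low. Fibroblast-like cells had 21.2% (673 cells), ependymal-like cells 19.9% (77 cells) and monocyte/macrophage-like cells 16.2% (1857 cells). Neutrophil-like cells, short-lived cells with little RNA, had 9.16% (1465 cells, median depth 1032 UMIs). In sham, pericyte or smooth muscle-like cells had 5.42% (519 cells). B cell-like and neutrophil-like cells had close median depths and shares far apart.

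A share can be high because ribosomal protein RNA is high or because other RNA is low. In endothelial-like cells the median cell held 336 ribosomal protein UMIs in sham and 3010 at 3 dpi (8.96-fold), while its other UMIs were 2901 and 10082 (3.48-fold). In precursor-like cells the ribosomal protein UMIs were 353 and 2045 per cell (5.79-fold) and the other UMIs 4807 and 9583 (1.99-fold). In microglia-like cells they were 527 and 2474 (4.69-fold), against 3288 and 11111 for the other UMIs (3.38-fold). In oligodendrocyte-like cells they were 385 and 719 (1.87-fold), against 7196.5 and 8457 (1.18-fold). Both parts were thus larger per cell at 3 dpi in these 4 classes, and the ribosomal protein part by more. In border-associated macrophage-like cells the 2 parts differed alike between libraries, 3.52-fold and 3.51-fold. UMIs per cell also depend on how deeply each library was sequenced, and that part was not tested.

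Within bins of equal depth the 3 dpi share was the higher one in every bin with at least 20 cells in both libraries. At 2000 to 5000 UMIs, microglia-like cells had 13.8% in sham and 18.7% at 3 dpi, and at 5000 to 10000 UMIs 14.8% and 20.8%. The gap nearly closed under 2000 UMIs, where the shares were 17.04% (187 cells) and 17.7% (62 cells). Precursor-like cells had 7.01% and 13.4% at 2000 to 5000 UMIs, and 6.97% and 15.5% at 5000 to 10000 UMIs. Their 3 dpi share climbed with depth to 19.0% over 10000 UMIs. Oligodendrocyte-like cells showed the same climb at 3 dpi, from 7.15% to 8.27% and 9.42%, while the sham share went from 5.41% to 5.16% and 4.48%. Endothelial-like cells stayed between 8.54% and 10.3% in sham and between 18.7% and 24.6% at 3 dpi.

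**Figure D2:**
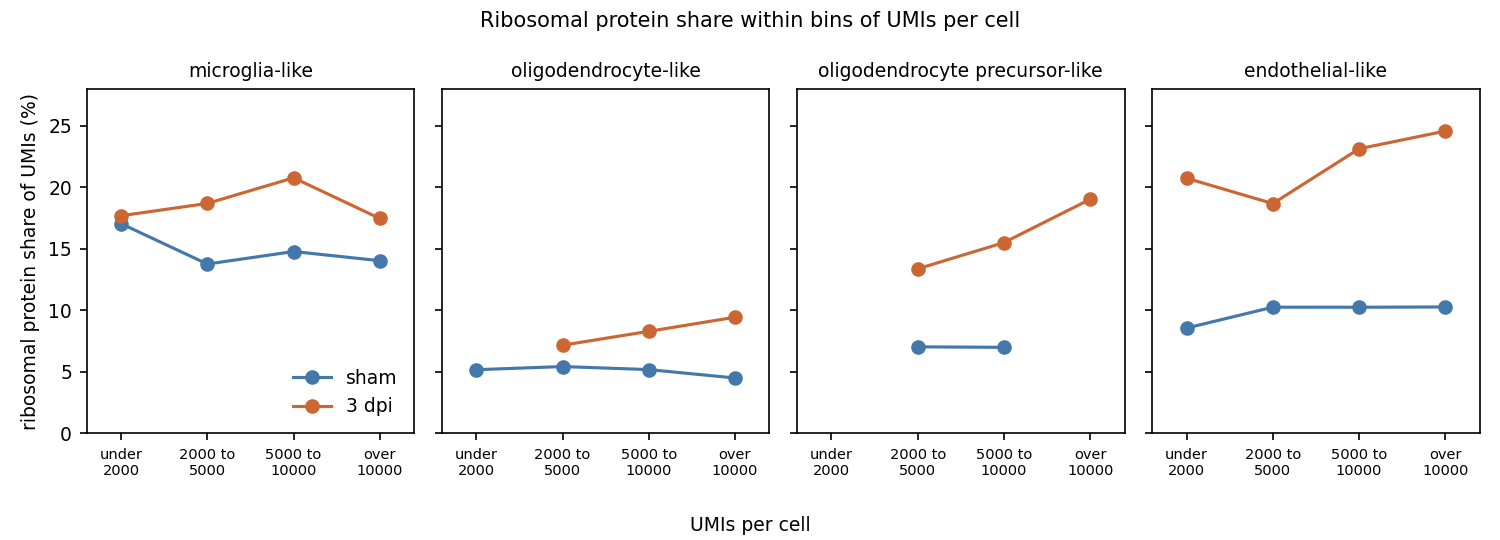
Ribosomal protein share of UMIs (vertical axis, percent) in bins of UMIs per cell (horizontal axis) for 4 classes, with sham in blue and 3 dpi in orange; only bins with at least 20 cells are drawn. The 3 dpi points lie above the sham points in every shared bin, nearly together for microglia-like cells under 2000 UMIs (17.04% and 17.7%).

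Clusters within a class also differed. Among 3 dpi microglia-like cells, cluster 6 had 19.4%, cluster 12 had 17.6% and cluster 13, whose leading genes include Spp1 and Hmox1, had 15.6%. Sham cluster 24, of 153 microglia-like cells with a median depth of 999 UMIs, had 20.9%, above 14.1% in sham cluster 0. Among monocyte/macrophage-like cells, cluster 5, led by Arg1, Ccl6 and Pf4, had 13.3% and cluster 16, led by Cd74 and other antigen presentation genes, had 21.7%. The name of cluster 16 depends on the clustering. Under coarser clustering a cluster with the same leading genes kept no name, as dendritic markers scored close to monocyte/macrophage markers. Unnamed cluster 17 (439 cells), with Hbb-bs, Hbb-bt and Gpd1 among its leading genes, had 18.8%. Counted as oligodendrocyte-like, a choice made after seeing the data, it raised that class's log2 ratio of 3 dpi over sham from 0.92 to 1.11.

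Other RNA groups also differed between the libraries, and those given here were lower at 3 dpi in all 5 classes compared. Dissociation and immediate early genes, which enzymatic digestion of tissue can induce, took 5.17% of UMIs in sham and 0.619% at 3 dpi in microglia-like cells, 3.24% and 1.26% in endothelial-like cells, and 2.53% and 0.681% in precursor-like cells. In oligodendrocyte-like cells they took 0.420% and 0.394%. In border-associated macrophage-like cells, where the ribosomal protein share differed least, they took 2.40% and 0.505%. Nuclear-retained RNAs, mainly Malat1, took 4.96% and 1.56% in precursor-like and 2.91% and 1.10% in endothelial-like cells. They took 2.22% and 0.632% in microglia-like, 4.67% and 3.61% in oligodendrocyte-like and 2.46% and 0.679% in border-associated macrophage-like cells. With Malat1 left out of the denominator, a choice made after seeing the data, the log2 ratio of the share was 1.34 in precursor-like and 1.23 in endothelial-like cells (1.39 and 1.26 with it). Malat1 lies within those few percent of UMIs, so leaving it out can move the ratio only a little. What part either group has in the result was not tested. In 4 of the 5 classes compared the class's own marker list had the highest sum of all lists in both libraries. In sham microglia-like cells the 12 microglia markers summed to 31022 counts per 1000000 UMIs of the class (CPM) and the 12 oligodendrocyte markers to 2976, and at 3 dpi to 14126 and 342. Border-associated macrophage-like cells were the exception. Their own 9 markers summed to 7640 CPM in sham and 6000 at 3 dpi, under the monocyte/macrophage list (14894 and 14705) and the microglia list (9797 and 8385). The oligodendrocyte list summed to 8314 CPM in these cells in sham and 427 at 3 dpi. Ependymal-like cells also had their own list at 1082 CPM, under pericyte or smooth muscle (1825) and astrocyte lists (1323). The part of these markers in the result was not tested.

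Single genes followed the class. CPM was compared with 10 CPM added to both libraries, genes counted as measured at 20 CPM in either, and 1.5-fold was taken as the size of a difference. In precursor-like cells 79 of 82 measured members were higher at 3 dpi and 0 lower, where 12.8% of all measured genes were higher and 31.3% lower. In endothelial-like cells 80 of 82 were higher and 0 lower, where 14.8% of genes were higher and 30.4% lower. In oligodendrocyte-like cells 74 of 82 were higher and 0 lower, where 9.86% of genes were higher and 12.4% lower. Microglia-like cells had 26 of 83 members higher and 1 lower, where 21.1% of genes were higher and 31.2% lower. In border-associated macrophage-like cells 13 of 83 were higher and 2 lower, where 24.9% of genes were higher and 26.3% lower; the count of higher members there lies under the background. Among cells of 2000 to 10000 UMIs the members higher were 43 in oligodendrocyte-like cells, where 8.72% of genes were, and 41 in microglia-like cells, where 17.2% were. The 3 other members, Rpl3l, Rpl10l and Rpl39l, stayed under 20 CPM in every class.

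The median member's log2 ratio was 1.38 in precursor-like, 1.21 in endothelial-like, 0.87 in oligodendrocyte-like, 0.37 in microglia-like and 0.21 in border-associated macrophage-like cells. The median of all measured genes was -0.26, -0.26, -0.04, -0.16 and -0.01 in the same order. Scaling by the median of ratios shifts the libraries by -0.26, -0.26, -0.04, -0.16 and -0.02 log2 units. On that scale 39 microglia-like members were higher and 0 lower, where 26.6% of genes were higher and 25.7% lower. The medians of large and small subunit genes were 1.32 and 1.51 in precursor-like, 1.20 and 1.21 in endothelial-like, 0.90 and 0.84 in oligodendrocyte-like and 0.37 and 0.27 in microglia-like cells. As shares of UMIs in precursor-like cells, the large subunit went from 3.89% to 9.19% and the small from 2.71% to 7.90%, a large to small ratio of 1.43 in sham and 1.16 at 3 dpi. The P stalk genes, whose proteins recruit elongation factors, had medians of 1.78, 1.44, 1.26 and 0.38.

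**Figure D3:**
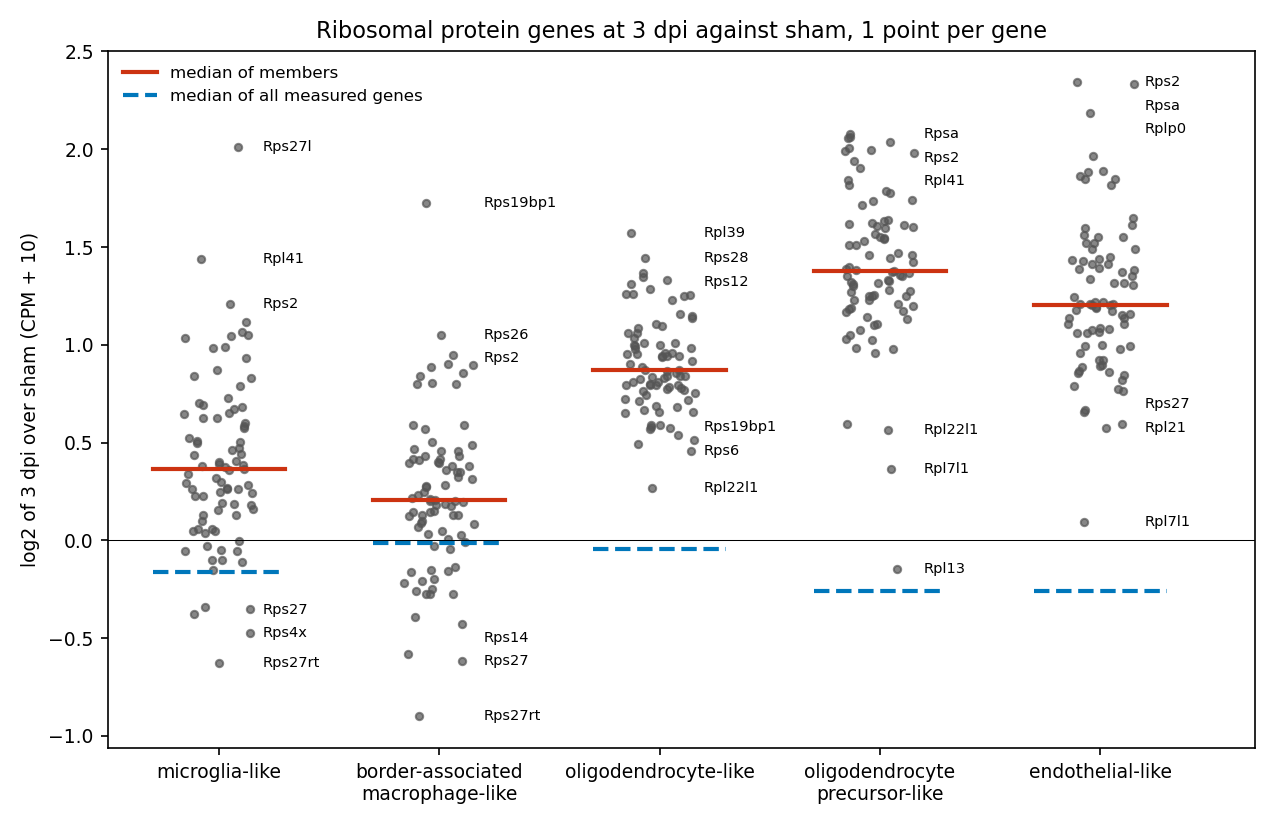
Each point is 1 ribosomal protein gene, placed by its log2 ratio of 3 dpi over sham (vertical axis, CPM with 10 added) in the 5 classes; the red line is the members' median and the dashed blue line that of all measured genes. Names label the 3 highest and 3 lowest members of each class. Nearly all points lie above 0 in the 3 right-hand classes, with Rpl13 at -0.15 in precursor-like cells, while microglia-like members spread from -0.63 (Rps27rt) to 2.01 (Rps27l).

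Members that departed from the rest were those at least 1.5-fold away from the median member of the class. There were 15 of 83 in microglia-like cells (10 above, 5 below), 16 of 83 in border-associated macrophage-like cells (11 and 5), 13 of 82 in endothelial-like cells (10 and 3), 12 of 82 in precursor-like cells (8 and 4) and 2 of 82 in oligodendrocyte-like cells (1 and 1). How many of all measured genes lay as far from their own median is not given here. Members lay closer together than genes in general. In microglia-like cells the quartiles of the log2 ratio were 0.13 and 0.65 over members, against -0.74 and 0.46 over all measured genes. In border-associated macrophage-like cells they were 0.02 and 0.42, against -0.62 and 0.58. The quartiles over members were the closer pair in the other classes too. In log2 units less the median member, Rpl35 (0.60) and Rps28 (0.56) lay on either side of that size in precursor-like cells, and Rps27 (-0.61) and Rps14 (-0.55) in endothelial-like cells.

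Rps27l, the paralog of Rps27 that p53 induces, stood highest in microglia-like cells. It was at 124 CPM in sham (117 to 131, Poisson) and 528 CPM at 3 dpi (521 to 536), a 4.27-fold ratio, and was seen in 37.9% and 95.6% of cells. All 3 large clusters at 3 dpi were near that level, with 505 CPM in cluster 6, 533 in cluster 12 and 562 in cluster 13, against 121 in sham cluster 0. Cells with Y-linked UMIs and no Xist, called male-derived here, had 115 CPM in sham and 547 at 3 dpi, and cells with Xist and no Y-linked UMIs, called female-derived, 137 and 488. In precursor-like cells Rps27l was at 338 and 997 CPM (2.95-fold), the highest level of any class, but its log2 ratio there lay only 0.16 above the median member. None of its 3′ stretches was shared with another gene. The other measured genes of the p53 target list did not move as one in microglia-like cells: 3 of 7 were higher and 2 lower. Of all measured genes there, 21.1% were higher and 31.2% lower.

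Rps27 itself, a small subunit protein with a zinc finger, was lower at 3 dpi in the macrophage classes, past 1.5-fold only in border-associated macrophage-like cells. In microglia-like cells it was at 2029 CPM in sham and 1558 at 3 dpi, and in border-associated macrophage-like cells at 2288 and 1488. In precursor-like cells it was at 663 and 1536 CPM, in endothelial-like cells at 1496 and 2265, and in oligodendrocyte-like cells at 498 and 755. Less the median member, it was below by 1.5-fold or more in 3 of 5 classes. Rps27rt, a near copy of Rps27, was low everywhere, with 22.3 CPM in sham and 10.9 at 3 dpi in microglia-like cells, a level that cannot be told apart from misplaced Rps27 reads.

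Rps4x, the X-linked small subunit gene, was at 2437 CPM in sham microglia-like cells and 1750 at 3 dpi, with 1974 in cluster 6, 1726 in cluster 12 and 1410 in cluster 13. Male-derived cells had 2377 and 1720 CPM, and female-derived cells 2420 and 1811. Rplp1, the P stalk gene with the most UMIs, was at 5042 and 3955 CPM in microglia-like cells but at 1226 and 4227 in precursor-like cells. Rps9 was at 2791 and 2201 CPM in microglia-like cells. None of these 3 reached 1.5-fold lower by itself; they stand out against a median member that was higher at 3 dpi.

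Another group stood above the median member in several classes. Rps2, at the entry of the messenger RNA channel, did so in 4 of 5 classes, with 955 CPM in sham and 4879 at 3 dpi in endothelial-like cells (5.11-fold), 788 and 3318 in precursor-like cells (4.21-fold) and 1111 and 2581 in microglia-like cells (2.32-fold). Near copies of Rps2 are many: stretches of its transcripts occurred in 36 other genes. Rpl35, beside the peptide exit tunnel, also did so in 4 of 5 classes, with 360 and 1448 CPM in precursor-like cells and 799 and 1741 in microglia-like cells. Rpsa, which doubles as a laminin receptor, did so in 3 classes, with 1043 and 5292 CPM in endothelial-like cells and 985 and 4185 in precursor-like cells. Rpl41, the shortest ribosomal protein, did so in 3 classes, with 1156 and 3152 CPM in microglia-like cells and 869 and 3652 in precursor-like cells. Rplp0, the scaffold of the P stalk, was at 1022 and 4678 CPM in endothelial-like cells and at 826 and 3312 in precursor-like cells. In oligodendrocyte-like cells the single member above was Rpl39, at 381 and 1153 CPM.

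Rpl13 was the exception in precursor-like cells. It was at 6133 CPM in sham (6006 to 6261) and 5531 at 3 dpi (5487 to 5575), the only member there with a log2 ratio under 0 (-0.15). The sham level was the odd one. Rpl13 made up 8.79% of ribosomal protein UMIs in sham precursor-like cells and 3.03% at 3 dpi, with a median of 2.56% over the 17 combinations of class and library. Sham cluster 21 had 6229 CPM, but sham cluster 27, unnamed and led by Gpr17, Rtn1 and Tnr, had 1614. The other 4 compared classes had 1157 to 3712 CPM in sham. The UMIs were spread over cells, with 100% of sham precursor-like cells holding Rpl13 and 20.3% of its UMIs in the top 10% of cells. Male-derived sham cells had 6532 CPM and female-derived ones 5919. Of the 3′ stretches of Rpl13, 86.0% also occurred in 7 other genes, none of them protein-coding, so its count is uncertain by the reads that such copies take or give.

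Paralogs and the binding protein left the group in different directions. Rpl22l1, the paralog of Rpl22, was at 243 and 514 CPM in microglia-like cells, above the median member, but at 462 and 688 in precursor-like and 150 and 182 in oligodendrocyte-like cells, below it. Rpl7l1, the paralog of Rpl7, barely differed between libraries: 77.9 and 103 CPM in precursor-like and 71.7 and 77.1 in endothelial-like cells. Rpl36al was at 124 and 271 CPM in microglia-like cells, with 72.7% of its 3′ stretches shared. Rps19bp1, a nucleolar protein that binds Rps19, was at 26.9 and 63.0 CPM in microglia-like cells and at 62.1 and 99.0 in precursor-like cells.

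The make-up of the ribosomal protein RNA also differed by class. Over 17 combinations of class and library, the range of a member's log2 share of ribosomal protein UMIs had a median of 0.99, and 7 of 83 members ranged over more than 2 log2 units. Only Rpl3 and Rpl13 among these were core proteins. The others were Rps19bp1 and the paralogs Rps27l, Rpl7l1, Rpl22l1 and Rps27rt. The lowest shares of Rps19bp1 (0.00685%, B cell-like) and Rpl7l1 (0.00936%, T or NK cell-like) rest on few counts. Those classes held 43787 and 53441 ribosomal protein UMIs. Rps27rt was at most 0.0297% of them in any class. Rpl37 ranged least, 0.38 log2 units. The 10 genes with the most UMIs, among them Rps29, Rpl13, Rplp1, Rps27a, Rpsa, Rps24, Rpl19, Rpl23 and Rpl32, held 21.6% of the total.

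Neutrophil-like cells held the lowest share for several members. Rpl3, near the peptidyl transferase centre, made up 0.351% of their ribosomal protein UMIs (322 CPM), against 1.69% in sham oligodendrocyte-like cells. Rps4x made up 0.458% in neutrophil-like cells (419 CPM) and 1.72% in sham microglia-like cells. Rpl22l1 was at 84.4 CPM in neutrophil-like cells, while Rps27l, at 554 CPM, reached 0.605% there, its highest. Rps27 made up 2.92% in neutrophil-like cells and 2.76% in B cell-like cells (10031 CPM), and 0.836% in 3 dpi oligodendrocyte-like cells. In T or NK cell-like cells Rps27l was at 178 CPM, the lowest share of any class. Rpl38 was at 2247 CPM in sham endothelial-like cells, its highest share at 2.21%, and at 1093 in sham microglia-like cells, its lowest at 0.771%.

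**Figure D4:**
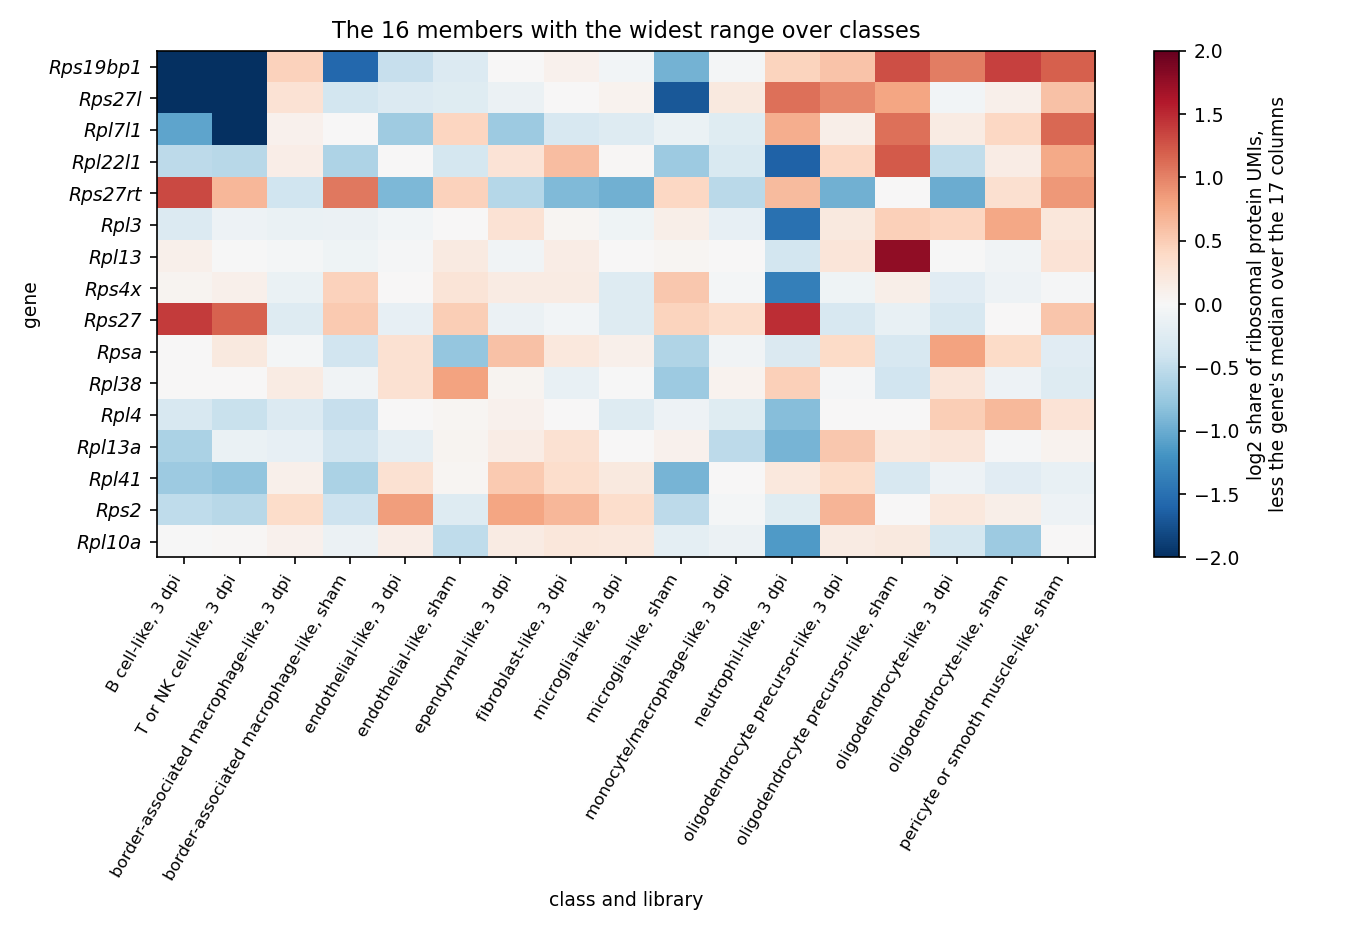
Colour shows the log2 share of ribosomal protein UMIs that each of 16 genes takes in each class and library, less that gene's own median over the 17 columns (red higher, blue lower, colours capped at 2 units). Rpl13 stands out in sham oligodendrocyte precursor-like cells (8.79%), Rps27 in B cell-like and neutrophil-like cells, and Rpl3, Rps4x and Rpl22l1 are low in neutrophil-like cells.

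Cycling cells were compared with others inside a class. Each cell was thinned to 2000 UMIs, and cells with 3 or more UMIs of 43 cell cycle genes were set against cells with 0, on their full counts. In sham, 15 of 2010 deep enough microglia-like cells (0.746%) and 19 of 268 precursor-like cells (7.09%) reached the threshold, too few to compare. At 3 dpi, 1336 of 2527 microglia-like (52.9%), 562 of 847 precursor-like (66.4%), 311 of 657 fibroblast-like (47.3%), 134 of 365 endothelial-like (36.7%) and 176 of 1793 monocyte/macrophage-like cells (9.82%) did. Cells with 1 or 2 such UMIs lay near the threshold, numbering 663, 152, 150, 115 and 666.

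In microglia-like cells the share was 17.8% of UMIs in 1336 cycling cells and 17.9% in 528 others, a difference of -0.017 percentage points. It stayed between 17.7% and 18.1% over 5 bins of cell cycle UMIs. In precursor-like cells it was 18.6% in 562 cycling and 16.5% in 133 other cells. In endothelial-like cells it was 25.4% and 23.3%, and in fibroblast-like cells 22.5% and 18.8%. Cycling cells were deeper in each class, with median depths of 13607.5 and 7192 UMIs in precursor-like, 26439 and 8615.5 in endothelial-like and 21615 and 13738 in fibroblast-like cells. Among cells of 5000 to 20000 UMIs the differences were 1.63 points in precursor-like, 1.79 in fibroblast-like and 0.440 in microglia-like cells.

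In monocyte/macrophage-like cells the class as a whole and cluster 16 gave differences of opposite sign. Together, the cycling cells had 19.4% and the others 14.9%, the widest gap of the classes compared, 4.43 points. Cluster 16, with the higher share and a name not kept under coarser clustering, held 142 of the 176 cycling cells. Cluster 5 held 769 of the 951 others. Within cluster 16 the cycling cells were the lower ones, 19.9% against 23.1% (142 and 182 cells, median depths 11687.5 and 4911 UMIs), a difference of -3.11 points. Cluster 5 held 34 cycling cells, under the 50 needed. This split by cluster was added after seeing the data, and the part of clusters or depth in the gap was not tested. In other classes the same split gave 1.47 points in precursor-like cluster 8, 1.77 in endothelial-like cluster 19, 3.61 and 4.01 in fibroblast-like clusters 18 and 22, and -0.57 and 0.15 in microglia-like clusters 6 and 13. Nearly all of microglia-like cluster 12 was cycling, 640 cells against 2.

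**Figure D5:**
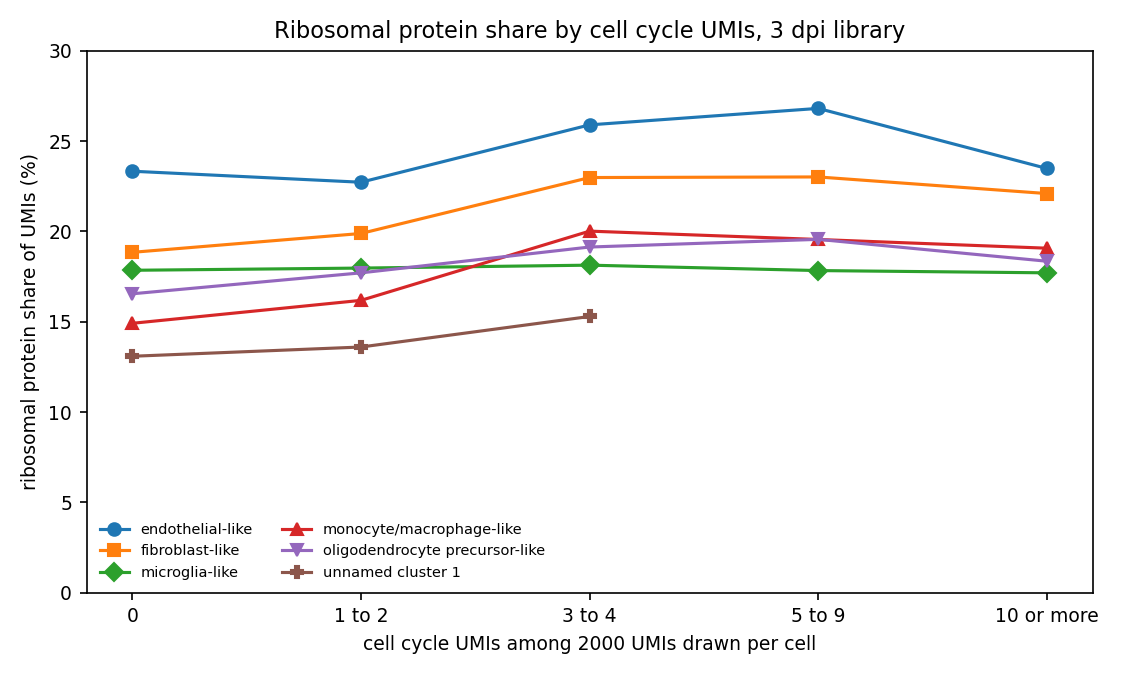
Ribosomal protein share of UMIs (vertical axis, percent, 3 dpi library) against the number of cell cycle UMIs among 2000 drawn per cell (horizontal axis), 1 line per class and 1 for unnamed cluster 1; bins hold at least 20 cells. The microglia-like line is flat between 17.7% and 18.1%, and the monocyte/macrophage-like line goes from 14.9% at 0 to 20.02% at 3 to 4.

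Few members passed 1.5-fold with cycling, but most were slightly higher outside microglia-like cells. The log2 ratio was above 0 for 81 of 82 members in fibroblast-like, 79 in monocyte/macrophage-like, 77 in precursor-like and 69 in endothelial-like cells. In microglia-like cells it was for 45. The medians were 0.28, 0.36, 0.18, 0.12 and 0.004 in that order, against -0.01, 0.03, -0.05, -0.003 and 0.08 over all measured genes outside the cell cycle list. The monocyte/macrophage-like values are of the class as a whole, with most cycling cells in cluster 16 and most others in cluster 5. Within cluster 16 the ribosomal protein share went the other way, 19.9% in cycling cells against 23.1%. Member ratios within clusters are not given here. In monocyte/macrophage-like cells 11 of 82 members were at least 1.5-fold higher in cycling cells, where 11.4% of all measured genes outside the cell cycle list were, a share near that of the members. In fibroblast-like cells 1 of 82 was, Rps19bp1, where 9.54% of genes were. The count was 0 in microglia-like, precursor-like and endothelial-like cells, where 8.11%, 9.21% and 5.99% of genes were. Less the median member, 1 value passed 1.5-fold, that of Rps27 in monocyte/macrophage-like cells (-0.59). Rpl14, a large subunit gene, was the highest member in 2 classes, with 1471 CPM in other and 1964 in cycling precursor-like cells, and 1152 and 1894 in monocyte/macrophage-like cells. Rps2 was highest in endothelial-like cells, at 4002 and 5507 CPM. Rps27 was at 1662 CPM in other and 1493 in cycling microglia-like cells, at 2457 and 2201 in endothelial-like cells and at 2201 and 1879 in monocyte/macrophage-like cells. In each of these 3 classes it was among the 2 members with the lowest ratio. In fibroblast-like cells it was the lowest of 82 members, at 2172 CPM in other and 2128 in cycling cells. Precursor-like cells went the other way, with Rps27 at 1405 CPM in other and 1551 in cycling cells.

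Genes that work with the ribosome were counted from lists. The shares of all genes higher at 3 dpi, against which these counts stand, were 12.8% in precursor-like, 14.8% in endothelial-like, 9.86% in oligodendrocyte-like, 21.1% in microglia-like and 24.9% in border-associated macrophage-like cells. Shares of all genes lower were 31.3%, 30.4%, 12.4%, 31.2% and 26.3% in the same order. Elongation factors, which move the ribosome along, had 11 of 14 measured genes higher and 0 lower in precursor-like cells, 10 of 12 and 0 in endothelial-like, 6 of 12 and 0 in oligodendrocyte-like, 3 of 13 and 1 in microglia-like, and 4 of 13 and 1 in border-associated macrophage-like cells. Eef1a1 was at 2024 and 5106 CPM in precursor-like cells, 2483 and 5884 in endothelial-like cells and 4288 and 4178 in microglia-like cells. Eif5a, which frees stalled ribosomes, was at 337 and 866, 313 and 841, and 269 and 713 CPM in the same classes. In microglia-like cells the elongation factor count was near the share of all genes. Initiation factors had 9 of 31 higher and 1 lower in precursor-like and, in microglia-like cells, 11 higher and 4 lower, with Eif4a2 lower in both (320 and 138 CPM, 182 and 51.9). Ribosome biogenesis genes, which build the particle in the nucleolus, had 12 of 41 higher and 0 lower in precursor-like, 16 of 37 and 1 in endothelial-like and 10 of 36 and 2 in microglia-like cells. Npm1, the nucleolar protein nucleophosmin, was at 384 and 1030 CPM in precursor-like and 263 and 920 in endothelial-like cells.

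Some ribosomal proteins have symbols outside the rule. Rack1 was at 534 and 1592 CPM in precursor-like cells and 1160 and 1661 in microglia-like cells. Fau was at 808 and 1896 CPM in precursor-like cells but 3850 and 3492 in microglia-like cells.

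Mitochondrial ribosomal proteins, which serve a separate ribosome, ranked the classes differently. In microglia-like cells 50 of 69 were higher and 0 lower, with a median log2 ratio of 0.85, and in precursor-like cells 14 of 76 were higher and 2 lower, with a median of 0.26. Regulators of Myc and mTOR had 2 higher and 4 lower of 14 in microglia-like cells, and 1 higher and 6 lower of 19 in precursor-like cells. These lower counts were near the shares of all genes lower, 31.2% and 31.3%. The gene higher in both was Eif4ebp1, an mTOR target that holds back initiation, at 47.7 and 175 CPM in microglia-like and 11.7 and 80.7 in precursor-like cells. Genes of the integrated stress response had 3 of 9 genes higher in microglia-like cells and 4 lower, with Atf3 at 3393 and 543 CPM. Of all genes there, 21.1% were higher and 31.2% lower. Cell cycle genes were higher in all 43 measured in microglia-like and in precursor-like cells.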

How the data were processed

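The deposited tables hold raw UMI counts per gene and barcode, made by the authors; Seurat and Cell Ranger are named, with no version, in the submitters' processing notes. Those notes give a human build, GRCh38, although the symbols are mouse symbols, so the aligned build is not settled here. No source used here says how reads with several matches were counted. Tables hold 0 mitochondrial genes. Cells needed 200 genes and 500 UMIs, and 820 sham (8.10%) and 1476 3 dpi cells (10.9%) were removed as doublets by their share of simulated neighbours, a threshold passed by 65.8% and 75.0% of simulated doublets, so doublets remain. Counts were scaled to 10000 per cell. The 2000 variable genes were picked without the members, their -ps symbols, Y-linked genes, Xist and Tsix. Genes of every list other than the cell type markers were left out too, cell cycle and immediate early genes among them. From these, 30 principal components with 15 neighbours gave 33 Leiden clusters at resolution 1. A cluster was named from markers where at least 3 were 2-fold higher and in 10% of its cells. It kept no name where a second class scored close to the first or genes of another class led it. The same held for a shallow cluster with no marker leading. UMIs were summed per class and library. Members and lists were chosen with earlier results of these data known. Named genes were all measured paralogs, the 10 members with the most UMIs, the 5 highest and 5 lowest members per class against the median member, the 10 with the widest range over classes, and, in other lists, the largest ratios and highest levels. The ratio rule was run on simulated counts of sham microglia-like and precursor-like profiles with 2-fold differences put in. That simulation held counting error only, so it cannot tell how much 2 libraries differ for other reasons. Alternatives changed 1 choice at a time. Clustering ran in leidenalg 0.10.2 on igraph 0.11.9, with components from scikit-learn 1.9.0. Sums and intervals came from pandas 2.3.3, scipy 1.17.1 and numpy 2.4.6 under Python 3.11.15, and plots from matplotlib 3.10.9. Values of some genes are not reported here.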

Additional observations from a re-analysis of the deposited data

Results flagged for a closer look

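Rps27 passed the 1.5-fold size in opposite directions in different classes. Its log2 ratio of 3 dpi over sham was -0.62 in border-associated macrophage-like cells (50 sham cells), against 0.59 in endothelial-like, 0.59 in oligodendrocyte-like and 1.20 in oligodendrocyte precursor-like cells. The values other than that of precursor-like cells lay close to that size. Less the median member of the class, Rps27 was below in all 5 classes measured, at -0.82 to -0.18 log2 units. With 1 library per group the difference between classes was not tested.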

How the results depend on the processing

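The log2 ratio of the ribosomal protein share was above 0 in every class and setting run. It was 1.39 in precursor-like, 1.26 in endothelial-like, 0.92 in oligodendrocyte-like, 0.33 in microglia-like and 0.16 in border-associated macrophage-like cells. Values that moved by more than the counting interval follow in that order of classes. They were 1.31, 1.20, 0.78, 0.38 and 0.13 as a mean over cells, and 1.34, 1.23, 0.91, 0.31 and 0.13 without Malat1. For the first 4 classes they were 1.37, 1.24, 0.91 and 0.31 with doublets kept, and 1.12, 1.11, 0.64 and 0.54 in cells of 2000 to 10000 UMIs. Male-derived cells gave 1.40, 1.28, 0.999 and 0.35, female-derived cells 1.37, 1.22, 0.86 and 0.37, and leaving out the 10 members with the most UMIs 1.45, 1.24, 0.90 and 0.33. Coarser clusters gave 1.41 in precursor-like, 1.09 in oligodendrocyte-like and 0.21 in border-associated macrophage-like cells. The stricter cell filter gave 1.27 in endothelial-like, 1.07 in oligodendrocyte-like and 0.33 in microglia-like cells. Subtracting 5% free RNA gave 0.90 in oligodendrocyte-like, 0.30 in microglia-like and 0.12 in border-associated macrophage-like cells. Finer clusters gave 0.87 in oligodendrocyte-like cells, counting cluster 17 among them gave 1.11, and leaving out cluster 13 gave 0.40 in microglia-like cells. The Malat1, cluster 13, cluster 17 and single-cluster settings were chosen after seeing the data.

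The difference between cycling and other cells was 2.06 points in precursor-like, 2.12 in endothelial-like, 3.69 in fibroblast-like, 4.43 in monocyte/macrophage-like and -0.017 in microglia-like cells. In that order it was 2.49, 3.61, 3.35, 5.23 and -0.33 as a mean over cells, and 1.63, 2.66, 3.34, 3.53 and -0.19 when thinned to 1000 UMIs. Doublets kept gave 3.22, 2.20, 3.76 and 5.77 in the first 4. A threshold of 2 cell cycle UMIs gave 1.72, 3.54 and 4.07 in endothelial-like, fibroblast-like and monocyte/macrophage-like cells, and a threshold of 5 gave 1.98, 3.62 and 4.29, with -0.091 in microglia-like cells. Cells of 5000 to 20000 UMIs gave 1.63 in precursor-like, 1.79 in fibroblast-like and 5.81 in monocyte/macrophage-like cells, and reversed the microglia-like value to 0.44. Single clusters gave 1.47 in precursor-like cluster 8, 1.77 in endothelial-like cluster 19, 3.61 and 4.01 in fibroblast-like clusters 18 and 22, -0.57 in microglia-like cluster 6, and reversed values of 0.15 in microglia-like cluster 13 and -3.11 in monocyte/macrophage-like cluster 16. The cause was not tested.

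At 2-fold in place of 1.5-fold, 23 oligodendrocyte-like, 8 microglia-like and 2 border-associated macrophage-like members were higher. The count of lower members was 0 in microglia-like and in border-associated macrophage-like cells. The share of all measured genes past 2-fold is not given here, so these counts cannot be set against it. Members that departed from the median by 2-fold numbered 2 in precursor-like, 3 in endothelial-like, 0 in oligodendrocyte-like, 2 in microglia-like and 2 in border-associated macrophage-like cells. The same count over all measured genes is not given here either. In cells of 2000 to 10000 UMIs, 43 oligodendrocyte-like and 41 microglia-like members were higher and 0 microglia-like members lower. The single lower microglia-like member fell to 0 also in male-derived cells and under median-of-ratios scaling, and coarser clusters left 1 lower border-associated macrophage-like member. Keeping doublets left 7 departing members in precursor-like cells. Of the 55 departing values of named members, 50 remained past 1.5-fold with coarser clusters and 55 with finer clusters, and of the 40 outside border-associated macrophage-like cells 25 remained in cells of 2000 to 10000 UMIs; 0 changed sign in these settings. Border-associated macrophage-like cells gave no value with doublets kept, the stricter filter, a depth range or cells of 1 sex, which left under 50 sham cells or no such class. No replicate could be left out and no paired analysis was possible because each group is 1 library.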
